A study of Mus musculus with 12 samples.

Results

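The genes described here encode the vacuolar ATPase (symbols starting with Atp6v or Atp6ap), the autophagy proteins named Atg with a number and the vacuolar protein sorting proteins named Vps with a number, measured in mouse striatum. They were chosen by a rule on gene symbols, set with earlier results of these data known. Of the 15397 genes in the deposited table, 74 met the rule: 21 V-ATPase genes (1 of them a pseudogene copy, Atp6v0c-ps2), 18 Atg genes and 35 Vps genes. The table comes from RNA-seq of microdissected striatum of C57BL/6 mice in 4 groups of 3 animals, 1 library each. Wild-type mice and R6/2 mice received either vehicle or chow with 275 ppm PLX3397, from week 7 to week 11 of age. R6/2 is a transgenic model of Huntington's disease that carries the first exon of the human huntingtin gene with a long CAG repeat, driven by the human promoter, on top of its intact mouse genes. PLX3397 inhibits the receptor CSF1R, on which microglia depend, and was given to remove them. Sex is not given in the sources used here.

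The V-ATPase is a rotary proton pump that acidifies lysosomes, endosomes and synaptic vesicles: its peripheral V1 sector hydrolyses ATP, its membrane V0 sector passes the protons, and accessory proteins help to assemble them. In autophagy, an initiation complex, a membrane supply by Atg9 and Atg2 proteins and a pair of ubiquitin-like conjugation systems build a vesicle around cytoplasmic cargo, which then fuses with the lysosome. Vps proteins form the tethers (HOPS, CORVET, GARP and EARP), the recycling coats (retromer and retriever) and the ESCRT machinery that move membranes between endosomes, Golgi and lysosome, and the large Vps13 proteins carry lipids between organelles. Neurons depend on these routes for clearing proteins such as mutant huntingtin and for refilling synaptic vesicles.

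The 12 libraries held 18902120 to 24293208 reads assigned to genes. The 18 microglial markers summed to 8.98 to 9.45 log2 CPM (log2 of the counts scaled to 1e6 reads) in the 6 vehicle libraries and to 4.84 to 5.92 in the 6 PLX3397 libraries, and 17 of them fell with the drug in each genotype. The 19 markers of striatal projection neurons were measured in every library, the tissue's defining cell type. Of these, 7 were lower in R6/2 on vehicle and 16 on PLX3397. Some libraries stood apart. The log2 CPM of Slc17a7, a glutamate carrier of synaptic vesicles made by cortical neurons, ran from 7.30 to 9.86 in 9 libraries, against 2.79 and 3.06 in libraries 1 and 2 of R6/2 on PLX3397 and 5.67 in library 1 of wild type on PLX3397. That of Ttr, which encodes transthyretin and marks choroid plexus, ran from 4.01 to 6.09 in 10 libraries and reached 12.1 in R6/2 vehicle 1 and 9.89 in wild-type PLX3397 1. The part of cortex or choroid plexus in the results below was not tested beyond the values given without these libraries.

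Each of the 74 genes had reads in every library, though Atp6v1c2 was as low as -0.52 log2 CPM in R6/2 vehicle 2. Their mean levels ran from 1.46 to 9.07 log2 CPM with a median of 6.15, against a median of 4.56 over all genes, and the fewest reads of any of them in any library were 12. No filter on low values was applied, and none of them averaged below 1 log2 CPM. On a scale per transcript length (log2 RPKM, log2 CPM less the log2 of the exon length in kilobases), the V-ATPase genes took the first 11 places in wild-type vehicle striatum. Atp6v1e1, the peripheral stalk subunit E, led with 7.98 log2 RPKM and 7.90 to 8.08 in the 3 libraries. The proteolipid Atp6v0b followed with 7.63 and a range of 7.48 to 7.76, below all values of Atp6v1e1. The next ranks, Atp6v0e2 at 7.46, Atp6ap1 at 7.30, Atp6v1b2 at 7.26 and Atp6v1g2 at 7.14, overlapped each neighbour in that order. The Vps genes with the highest levels after Vps28 (6.38) were Vps41, a HOPS subunit, and Vps35, the retromer core, both at 5.91. The highest Atg gene was Atg9a, the lipid scramblase of seed vesicles, at 4.98, and the lowest of the 73 genes with a known length was Atg9b at 0.90. Of the 74 genes 17 share part of their locus with another protein-coding gene, and since strand-specific counting is not given in the sources used here, reads of the 2 genes of such a pair may be mixed. Among the genes described here these are Atp6v1b2 (with Slc18a1), Atp6v1c2 (Pdia6), Atp6v1g2 (Nfkbil1), Atg9b (Nos3), Atg12 (Ap3s1), Vps13d (Dhrs3), Vps26b (Thyn1), Vps29 (Fam216a), Vps36 (Thsd1), Vps72 (Tmod4), Vps9d1 (Zfp276) and 6 others named where they occur.

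**Figure D1:**
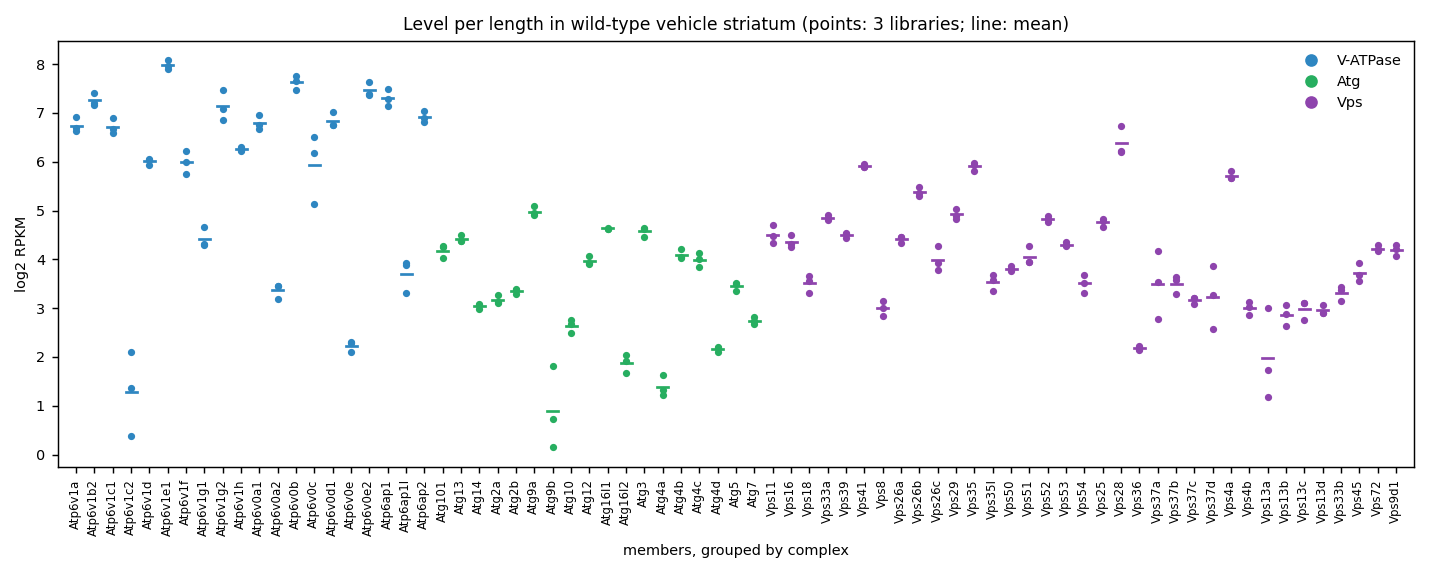
Level per transcript length (log2 RPKM, vertical axis) of the 73 genes with a known exon length in the 3 wild-type vehicle libraries (points) with their mean (line), grouped by complex along the horizontal axis and coloured by family. The V-ATPase genes fill the top of the scale, led by Atp6v1e1 at 7.98, and Atg9b is lowest at 0.90.

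Where a subunit has more than 1 gene, a single form usually dominated in this tissue. Atp6v1g2, the neuronal form of subunit G, stood 6.60-fold above the ubiquitous Atp6v1g1 per length (7.14 against 4.42 log2 RPKM), and Atp6v0a1, the neuronal form of subunit a, stood 10.8-fold above Atp6v0a2. Atp6v0e2 was 37.5-fold above Atp6v0e, and Atp6v1c1 was 43.2-fold above Atp6v1c2. In each of these pairs the 3 wild-type vehicle values of the genes did not overlap. Among the Vps paralogs, Vps4a stood 6.56-fold above Vps4b, both ATPases that take the ESCRT-III filament apart. Vps26b was 1.95-fold above Vps26a, the 2 arrestin-like retromer subunits. The 4 Vps13 genes lay closer together: Vps13c at 2.99, Vps13d at 2.95 and Vps13b at 2.86 log2 RPKM overlapped, and Vps13a followed at 1.97 with a wide range of 1.18 to 3.00. The 4 ESCRT-I Vps37 genes all fell between 3.17 and 3.49 and each overlapped the next.

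The transcription factor TFEB, which drives many lysosomal and autophagy genes, binds the palindrome TCACGTGA, an extended E-box. These letters were searched on both strands in the windows from 250 bases before to 50 bases after each start site (RefSeq, GRCm38.p6), which exist for 52 of the 74 genes. They were present in 7 of the 52 genes (13.5%), against 237 of 11814 genes of the table with a window (2.01%) and 304 of all 27025 genes with one (1.12%). The shorter core CACGTG, which the palindrome contains, was present in 12 of the 52 (23.1%) and in 11.3% of the table's genes. A match describes the sequence and does not show that a factor binds there. The 7 genes are shown because they span the pump, the conjugation system, the tethers and the retromer. Each line gives 30 bases on the gene's own strand with the palindrome in capitals.
Atp6v1a: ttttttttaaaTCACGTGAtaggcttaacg
Atp6v0d1: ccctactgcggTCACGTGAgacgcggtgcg
Atp6v0e: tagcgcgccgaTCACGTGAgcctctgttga
Atg3: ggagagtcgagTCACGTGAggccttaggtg
Vps16: aggcggcctcgTCACGTGAccccgaagggc
Vps33a, first site: agcgactcggaTCACGTGAacgtcccgtca
Vps33a, second site: tgaacgtcccgTCACGTGAcgcaggcggcg
Vps26a, upstream start: cgcacggctcgTCACGTGAcaactagctct
Vps26a, downstream start: atggcctacggTCACGTGAcgggcggcggg
The windows lie at chr16:44139373-44139402 on the minus strand for Atp6v1a, the catalytic subunit A, and at chr8:105566050-105566079 on the minus strand for Atp6v0d1, subunit d. The Atp6v0e window is chr17:26676387-26676416 and that of Atg3, the E2-like enzyme for LC3, is chr16:45158746-45158775, both on the plus strand. Vps16, a core subunit of HOPS and CORVET, has its window at chr2:130424290-130424319 on the plus strand, with the palindrome starting 19 bases before the start site. The Vps33a windows are chr5:123573026-123573055 and chr5:123573010-123573039, and those of Vps26a are chr10:62486970-62486999 and chr10:62486732-62486761, all on the minus strand. Of the 7 genes, Atp6v0d1 and Vps16 passed the test in more than 1 of the comparisons below and Atp6v1a in 1, whereas Atg3, Atp6v0e, Vps26a and Vps33a passed in none.

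**Figure D2:**
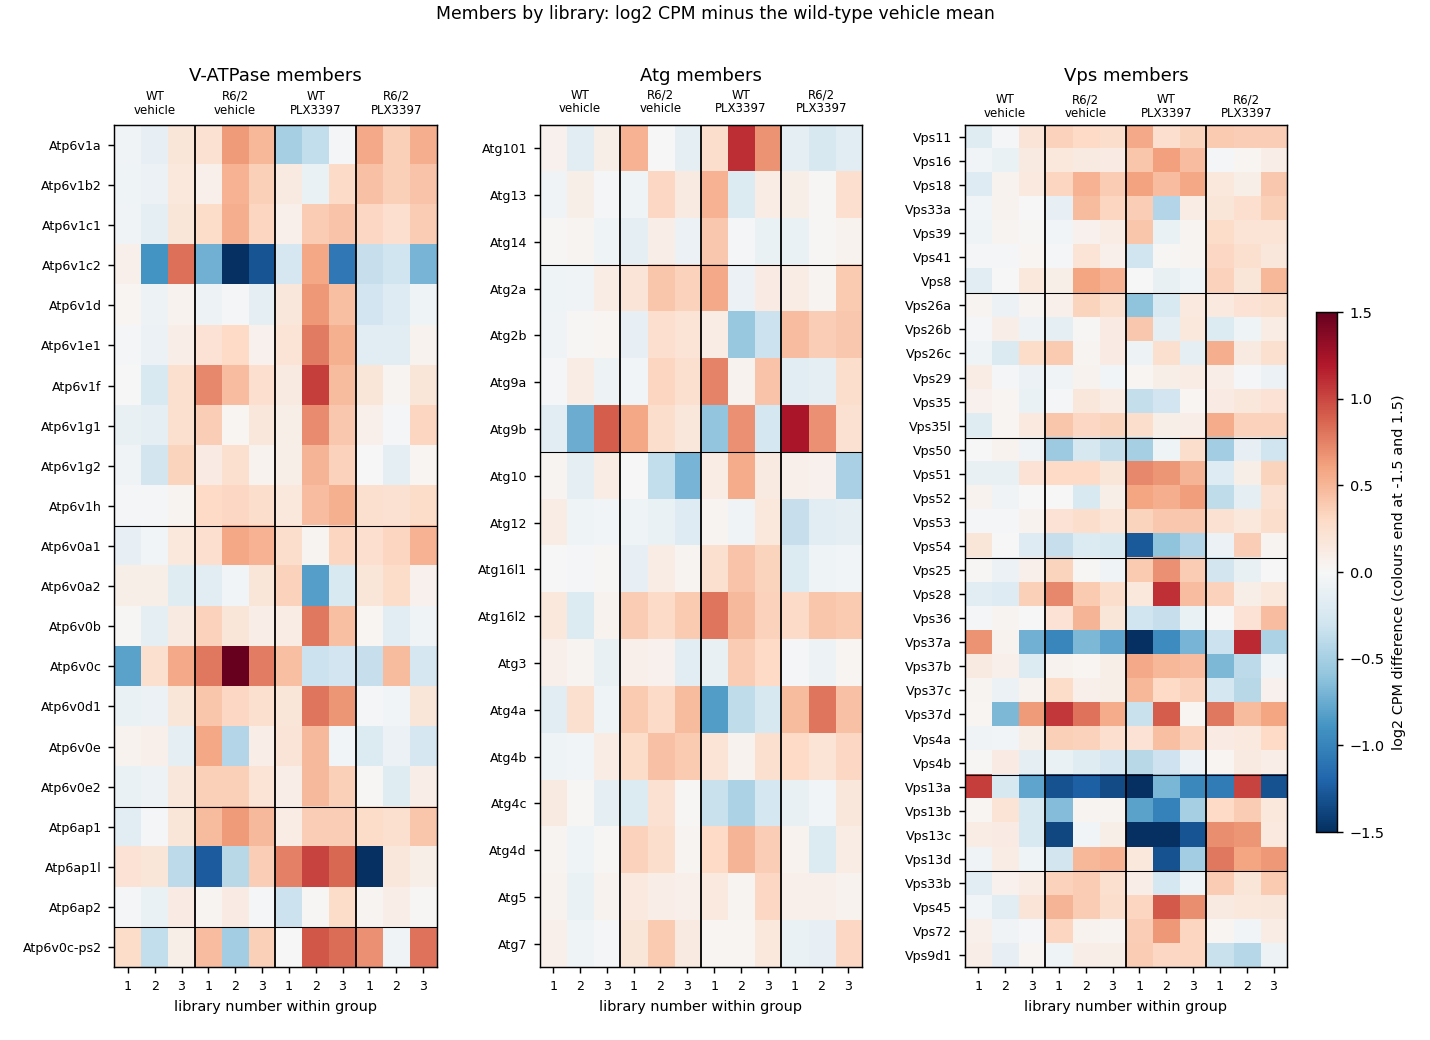
Each of the 74 genes (rows, by complex) in each of the 12 libraries (columns, by group and library number), as log2 CPM minus the mean of the 3 wild-type vehicle libraries. Colours end at -1.5 and 1.5. The rows of Vps13b and Vps13c are blue in all 3 wild-type PLX3397 libraries, Vps13c is red in R6/2 PLX3397, and most V-ATPase rows are pale red in R6/2 vehicle.

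The first comparison asks how R6/2 striatum differed from wild type without the drug. None of the 74 genes passed the test (limma, Benjamini-Hochberg adjusted p under 0.05 over all 15397 genes, of which 2.11% were called), nor did any with limma-voom on the recovered reads, where 0.942% of all genes were called. An unadjusted p under 0.05 was reached by 21 of the 74, as by 22.6% of all genes. The values of the 3 R6/2 libraries lay wholly above those of the 3 wild-type libraries for 25 genes and wholly below for 4, against 16.4% and 17.1% of all genes. Of the 21 V-ATPase genes, 9 lay wholly above and 0 wholly below. The median change was 0.16 (log2) over the 74 genes, 0.21 over the V-ATPase genes and 0.01 over all genes. In bulk tissue, fewer cells of a type and less RNA per cell cannot be told apart. The projection neuron markers were lower in the same libraries, with a summed level of 10.1 to 11.3 log2 CPM in R6/2 and 12.2 to 13.7 in wild type. Other marker lists moved too. Below 0 were 8 of 8 astrocyte genes (2 called), 9 of 9 genes of mature oligodendrocytes (1 called) and 7 of 8 of thalamus, septum and pallidum (1 called). Above 0 were 7 of 7 endothelial genes and 11 of 12 of cortical excitatory neurons (0 called in each). The part of these lists was not tested.

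Atp6ap1 (chrX:74297097-74304721), the assembly factor Ac45, came closest to the threshold. It stood at 8.32, 8.45 and 8.65 log2 CPM in the wild-type vehicle libraries and at 8.95, 9.11 and 8.96 in R6/2 vehicle. The groups did not overlap, and the difference was 0.53 ± 0.13 (log2, SE), with a limma adjusted p of 0.0571. It passed without wild-type vehicle library 3 (0.62, adjusted p = 0.0414) and without wild-type PLX3397 library 1 (adjusted p = 0.0411), which enters through the shared estimate of the spread. The membrane subunit Atp6v0a1 was at 8.70, 8.78 and 8.97 in wild type and at 9.07, 9.39 and 9.33 in R6/2, a difference of 0.45 ± 0.14 (adjusted p = 0.104). The catalytic subunit Atp6v1a was at 8.77, 8.71 and 9.0 against 9.05, 9.46 and 9.33, a difference of 0.45 ± 0.16 (adjusted p = 0.136). In both, the lowest R6/2 library still lay above the highest wild-type library. Subunit B, Atp6v1b2, overlapped between the groups, with a difference of 0.32 ± 0.15 (adjusted p = 0.221). After a trend with transcript GC and length was removed from each library, 5 genes passed, all higher in R6/2, where 6.38% of 14305 genes did. The median change was then 0.23 over the 73 genes with a known length and 0.099 over the 14305. The 5 were Atp6v0a1 at 0.50 (limma adjusted p = 0.0418), Atp6ap1 at 0.50 (0.0444), Atp6v1a at 0.59 (0.0426) and, named after their values were seen, the LC3 protease Atg4b at 0.38 (0.0372) and the CORVET subunit Vps8 at 0.49 (0.0469).

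The proteolipid Atp6v0c, which forms most of the proton-carrying ring, has a near-identical processed copy, Atp6v0c-ps2, and the split of reads between them varied from library to library. The gene took 15.8 to 18% of the reads of the pair in 5 libraries (wild-type vehicle 1, wild-type PLX3397 2 and 3, R6/2 PLX3397 1 and 3), 36.0 to 40.7% in 6, and 65.9% in R6/2 vehicle library 2. Libraries of the first and the second kind occurred together in both wild-type groups and in R6/2 PLX3397, and the values of either gene alone are uncertain. Atp6v0c alone was at 5.47, 6.51 and 6.84 log2 CPM in wild-type vehicle and at 7.06, 7.85 and 7.04 in R6/2 vehicle, a difference of 1.04 ± 0.38 (limma adjusted p = 0.142). The sum of the pair was at 7.99, 7.81 and 8.22 in wild type and at 8.53, 8.46 and 8.46 in R6/2, a smaller difference of 0.48 ± 0.16 (adjusted p = 0.127). Neither passed.

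The Atg and Vps genes had smaller median changes on vehicle. Of the 18 Atg genes, 6 lay wholly above wild type in R6/2 and 1 wholly below, with a median change of 0.13. Atg7, the E1-like enzyme of conjugation, was at 4.86, 4.71 and 4.76 against 4.96, 5.17 and 4.92 (0.24 ± 0.14, adjusted p = 0.331), and Atg5, which receives Atg12, differed by 0.11 ± 0.11. Of the 35 Vps genes, 10 lay wholly above and 3 wholly below, with a median of 0.14. The HOPS and CORVET core subunit Vps18 was at 5.34, 5.58 and 5.68 in wild type and at 5.86, 6.05 and 5.92 in R6/2 (0.41 ± 0.13, adjusted p = 0.105). Vps13a, whose loss in people causes chorea-acanthocytosis, was wholly below, at 6.44, 5.17 and 4.62 against 4.10, 4.18 and 4.07, with the spread almost all in wild type (-1.29 ± 0.67, adjusted p = 0.27). Vps35 and Vps26b, at 0.08 ± 0.12 and 0.00 ± 0.15, differed by less than their errors.

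The second comparison asks what PLX3397 changed in wild-type striatum. Of the 74 genes 17 passed (23.0%), 14 higher and 3 lower, against 14.2% of all genes (5.93% higher and 8.3% lower). The median change was 0.19, against 0.00 over all genes. The genes that rose were mostly subunits of the pump and of the HOPS, CORVET, GARP and EARP tethers, with changes of 0.34 to 0.65, and the genes that fell were Vps13c, Vps13b and Vps54. These counts rest on few libraries: 0 genes passed without wild-type vehicle library 1 (1.48% of all genes) and 0 without library 2 (1.57%). Leaving out wild-type vehicle 3, wild-type PLX3397 2 or 3, R6/2 vehicle 2 or 3 or R6/2 PLX3397 2 left 4 to 10, where 6.07% to 12.6% of all genes passed. There were 7 without R6/2 PLX3397 1 and 2 together (8.55%) and 1 when the 6 wild-type libraries were fitted alone (2.28%). Without the 2 libraries high in Ttr, 27 passed, where 23.1% of all genes did.

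Of the V1 sector, Atp6v1d, the rotor shaft, rose from 7.91, 7.81 and 7.93 log2 CPM on vehicle to 8.06, 8.53 and 8.33 (0.42 ± 0.13, 1.34-fold, limma adjusted p = 0.0489). Atp6v1e1 rose from 8.36, 8.29 and 8.47 to 8.58, 9.16 and 8.90 (0.51 ± 0.15, adjusted p = 0.0464), and the regulatory subunit Atp6v1h, named after its values were seen, by 0.38 ± 0.11 (adjusted p = 0.0417). In these 3 genes the groups did not overlap. Of the V0 sector, Atp6v0d1 rose from 7.45, 7.46 and 7.73 to 7.73, 8.35 and 8.21, which met only at wild-type vehicle library 3 and PLX3397 library 1 (0.55 ± 0.16, adjusted p = 0.0438). The catalytic subunit Atp6v1a was at 8.33, 8.46 and 8.81 on the drug, a difference of -0.29 ± 0.16 that did not pass. Across the family 4 of 21 genes rose and 0 fell, with 16 changes above 0 and 5 below, called or not. The difference between Atp6v1a and the other subunits was not tested.

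**Figure D3:**
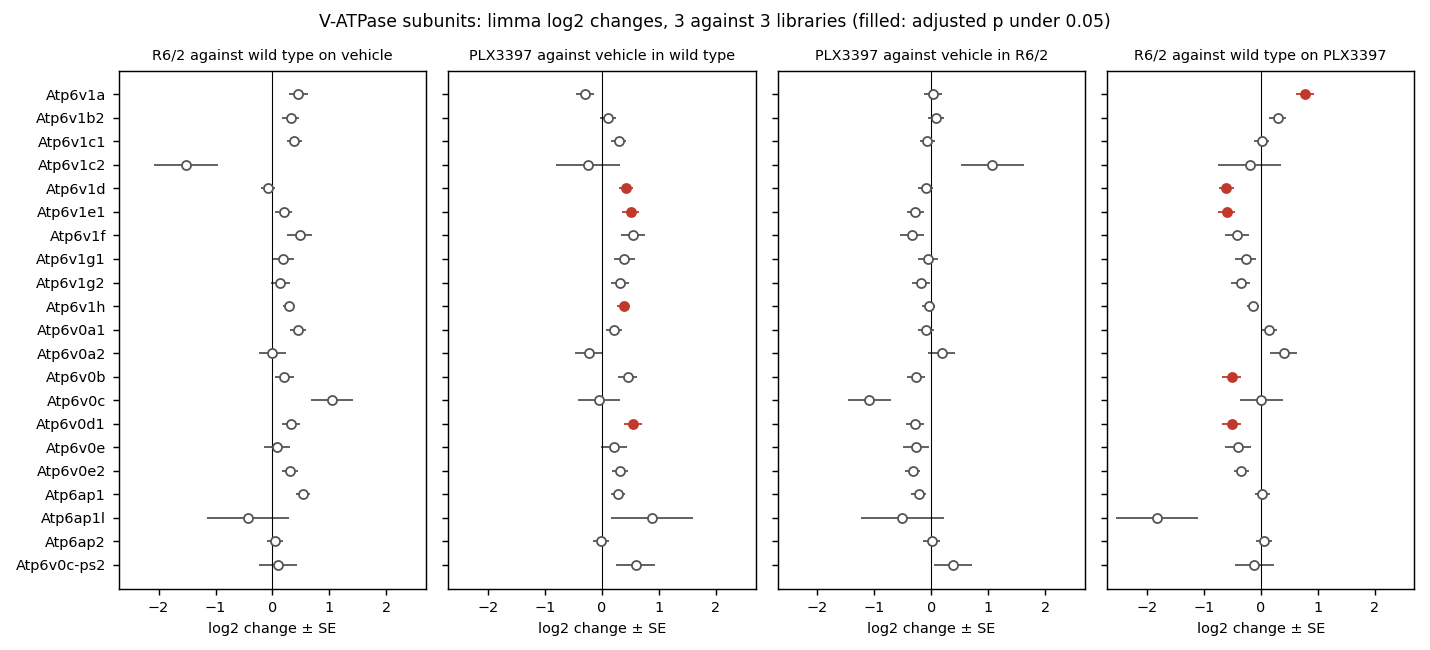
Log2 change with its SE (horizontal axis) of the 21 V-ATPase genes (rows) in the 4 pairwise comparisons of 3 against 3 libraries, with filled red points for limma adjusted p under 0.05. The points lie mostly to the right on vehicle with none filled, 4 are filled to the right for PLX3397 in wild type, none for PLX3397 in R6/2, and on PLX3397 Atp6v1a lies to the right of 4 filled points on the left.

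Of the 18 autophagy genes 1 rose and 0 fell. Atg16l2, a paralog of the protein that places the LC3 ligase on the membrane, rose from 4.72, 4.36 and 4.61 to 5.37, 5.05 and 4.91 (0.55 ± 0.14, adjusted p = 0.0329). Atg101, the partner of Atg13 in the Ulk1 complex, was at 4.59, 4.37 and 4.61 on vehicle and 4.79, 5.63 and 5.20 on the drug, which did not overlap but did not pass (0.68 ± 0.22, adjusted p = 0.0597). Atg13, Atg9a, Atg5 and Atg7 did not pass either. With the trend in transcript GC and length removed, 4 Atg genes were higher: Atg16l2 and the conjugation genes Atg16l1 (0.56, adjusted p = 0.0068), Atg12 (0.51, 0.0212) and Atg3 (0.62, 0.045). Without wild-type PLX3397 library 1, Atg101 (0.89, adjusted p = 0.0222) and Atg16l1 (0.38, 0.0371) were also called higher.

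Of the 35 Vps genes 9 rose and 3 fell. In the HOPS and CORVET core, Vps16 (chr2:130424320-130444269), whose promoter window holds the palindrome shown above, rose from 5.97, 5.92 and 6.15 to 6.43, 6.63 and 6.48 (0.50 ± 0.10, adjusted p = 0.0154). It shares part of its locus with Pced1a. Its partner Vps18 rose by 0.55 ± 0.13 (adjusted p = 0.0214). The other 5 subunits of these tethers did not pass. The 3 shared subunits of the GARP and EARP tethers, which return vesicles to the Golgi and to recycling endosomes, rose together: Vps51 from 5.59, 5.59 and 5.92 to 6.42, 6.36 and 6.21 (0.63 ± 0.15), Vps52 from 6.64, 6.53 and 6.58 to 7.18, 7.13 and 7.21 (0.59 ± 0.15) and Vps53 by 0.39 ± 0.09, with adjusted p-values of 0.0224, 0.0286 and 0.0206. No PLX3397 library of these 3 genes came down to a vehicle value. With the trend in transcript GC and length removed, Vps53 kept its call and Vps51 and Vps52 did not. The GARP-specific subunit Vps54 (chr11:21239032-21321133) went the other way, from 5.80, 5.63 and 5.43 to 4.36, 5.01 and 5.18 (-0.77 ± 0.20, adjusted p = 0.034). Vps54 overlaps Ugp2, and Vps51 overlaps Tm7sf2.

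Among the remaining Vps genes, Vps45, which acts with SNARE proteins at early endosomes, rose most, from 5.08, 4.96 and 5.32 to 5.44, 6.04 and 5.81 (0.65 ± 0.16, 1.57-fold, adjusted p = 0.0251). The ESCRT-II subunit Vps25 rose by 0.49 ± 0.14, the ATPase Vps4a by 0.34 ± 0.10 and Vps72 by 0.44 ± 0.13. Vps72 is a subunit of chromatin remodelling complexes and not a sorting protein. The retromer subunits Vps35, Vps26a and Vps26b did not pass.

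The lipid transfer protein Vps13c (chr9:67840316-67997744), whose loss in people causes early-onset parkinsonism, fell most of all 74 genes. It stood at 6.63, 6.64 and 6.29 log2 CPM in wild-type vehicle and at 4.84, 3.99 and 5.22 in wild-type PLX3397. All drug values lay more than 1 log2 unit below all vehicle values, a fall of 3.57-fold (-1.84 ± 0.38, adjusted p = 0.016). Vps13b (chr15:35371118-35931229) fell from 6.67, 6.85 and 6.41 to 5.84, 5.63 and 6.14 (-0.77 ± 0.20, adjusted p = 0.0327), again without overlap. Vps13d went from 6.89, 7.05 and 6.88 to 7.09, 5.63 and 6.41 and Vps13a from 6.44, 5.17 and 4.62 to 2.78, 4.72 and 4.44, both with overlap and neither called. The fall of Vps13c passed in 20 of 22 alternatives and not without wild-type vehicle library 1 (-1.78, adjusted p = 0.072) or 2 (-1.77, adjusted p = 0.069).

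Genes of the same routes without these prefixes showed changes in both directions on the drug in wild type. Of the 14 genes of the initiation kinase and lipid kinase complexes 1 rose and 0 fell (Wdr45, a lipid-binding protein of early autophagosomes, by 0.54 ± 0.12), and of the 5 LC3 and GABARAP genes 1 rose and 0 fell (Map1lc3b, by 0.46 ± 0.14). Of the 9 other V-ATPase proteins and regulators 0 rose and 1 fell (Dmxl2, a subunit of an assembly factor of the pump, -1.08 ± 0.27). Of the 20 ESCRT genes 3 rose and 2 fell, and of the 15 sorting nexins and tether partners 2 rose and 1 fell. Of 29 lysosomal hydrolases and membrane proteins 1 rose (Ctsa, by 0.40 ± 0.11) and 4 fell, among them the protease Ctss, abundant in microglia (-5.50 ± 0.55). The 3 measured TFEB family genes gave no call. No cargo receptor of 9 passed. The microglial markers fell in the same libraries. Other marker lists moved too: 3 of 6 genes of oligodendrocyte precursors fell (median -0.95, summed level 8.26 to 8.46 log2 CPM on vehicle and 7.44 to 7.89 on the drug), as did 2 of 8 astrocyte genes (12.1 to 12.5 and 11.7 to 12.1) and 1 of 8 genes of thalamus, septum and pallidum (median -1.90, 7.77 to 8.85 and 6.14 to 8.53). Of the 19 projection neuron markers 0 were called, with 18 changes above 0 and 1 below (median 0.71). Their summed level was 12.2 to 13.7 log2 CPM on vehicle and 13.1 to 14.4 on the drug. No gene of these lists was at 0 in all libraries. Their part in these changes was not tested.

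**Figure D4:**
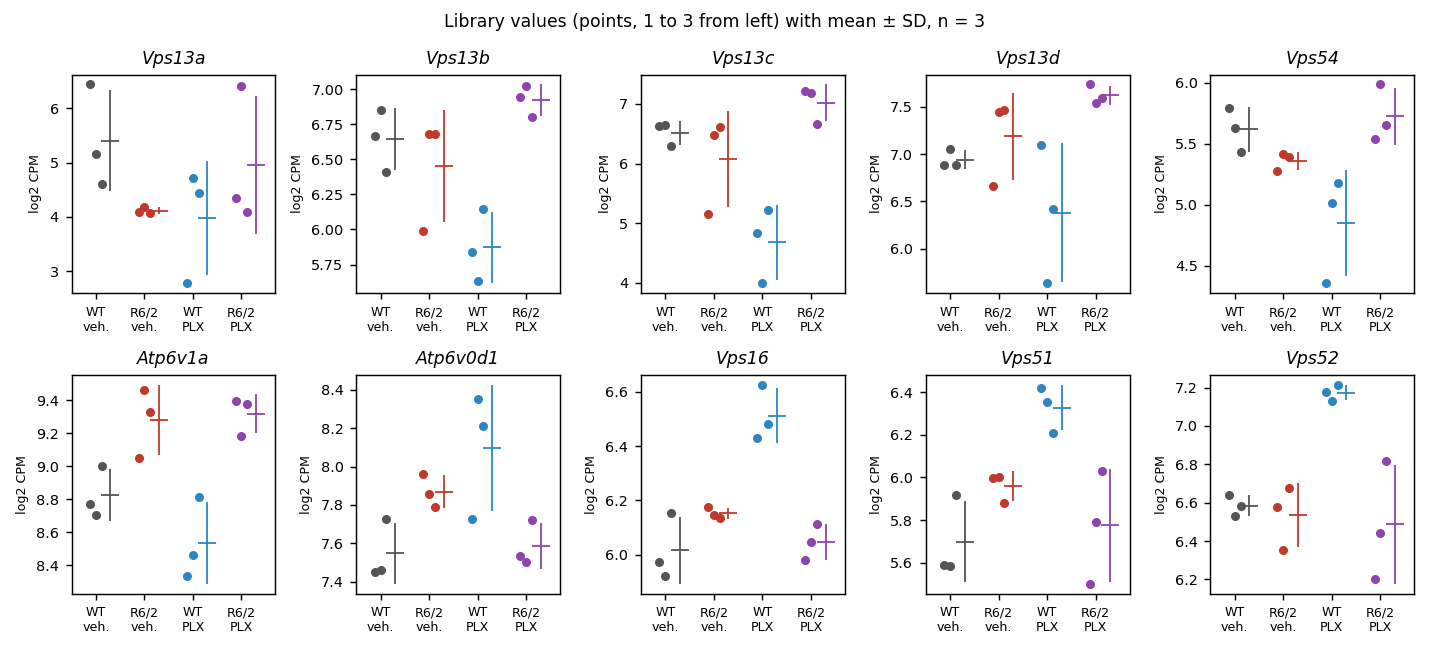
Log2 CPM (vertical axis, own range in each panel) of 10 genes in the 3 libraries of each group (points), with mean and SD beside them (n = 3). Vps13b, Vps13c and Vps54 are lowest in wild-type PLX3397, and Vps16, Vps51 and Vps52 are highest there, while Vps13a is scattered in 3 of the 4 groups.

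The third comparison asks what PLX3397 changed in R6/2 striatum. None of the 74 genes passed with limma or with limma-voom, where 1.1% of all genes were called by limma and 1.03% by limma-voom, and 8 had an unadjusted p under 0.05, where 13.1% of all genes did. The lowest adjusted p was 0.295. The median change was -0.05, against -0.01 over all genes. The drug and vehicle libraries did not overlap for 10 genes that were higher on the drug and 13 that were lower, against 12.2% and 11.9% of all genes. Of the V-ATPase genes, 1 lay wholly above and 8 wholly below.

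Vps13c and Vps13b, which fell with the drug in wild type, had positive differences in R6/2 that did not pass. Vps13c stood at 5.15, 6.47 and 6.61 in R6/2 vehicle and at 7.21, 7.18 and 6.67 in R6/2 PLX3397, wholly above (0.94 ± 0.38, adjusted p = 0.353), and R6/2 vehicle library 1 was the low one. Vps13b was at 5.99, 6.68 and 6.68 against 6.94, 7.02 and 6.80 (0.47 ± 0.20), with the same library low. The ESCRT-I subunit Vps37b, not called in wild type either (0.51 ± 0.16, adjusted p = 0.0527), was at 4.89, 4.85 and 4.92 on vehicle and 4.16, 4.44 and 4.78 on the drug (-0.43 ± 0.16, adjusted p = 0.306). Atp6v0d1 was at 7.96, 7.86 and 7.79 against 7.53, 7.50 and 7.72 (-0.28 ± 0.16), and Atp6v0e2, also not called in wild type (0.32 ± 0.14, adjusted p = 0.126), at 8.66, 8.65 and 8.51 against 8.32, 8.12 and 8.40 (-0.33 ± 0.14). Atp6v1a, Atp6v1b2, Atp6ap2, Atg5, Atg9a and Vps35 overlapped between vehicle and drug. Of the related genes outside the name rule, Ctss fell in R6/2 as well (-6.48 ± 0.55).

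The fourth comparison sets R6/2 against wild type when both received PLX3397. It had the most calls: 28 of the 74 genes passed (37.8%), 12 higher and 16 lower in R6/2, against 35% of all genes (17.1% higher and 17.9% lower). The share of the 74 genes was thus near that of all genes, and the median change was -0.10, against -0.00. By family, 1 V-ATPase gene was higher and 4 lower, 2 Atg genes were higher and 3 lower, and 9 Vps genes were higher and 9 lower. None of the 28 passed without R6/2 PLX3397 libraries 1 and 2, the 2 libraries low in Slc17a7, where 19 still had an unadjusted p under 0.05 and 1.54% of all genes were called. That fit rests on 1 R6/2 PLX3397 library, assumed to vary like the other groups. Without R6/2 PLX3397 library 1 alone, 18 passed (22% of all genes). With all libraries, the 12 genes of cortical excitatory neurons moved in both directions. In R6/2, 2 were called higher and 1 lower, with 3 changes above 0 and 9 below (median -1.08).

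Atp6v1a (chr16:44085402-44139702) was 1.72-fold higher in R6/2, at 9.40, 9.18 and 9.37 log2 CPM against 8.33, 8.46 and 8.81 in wild type (0.78 ± 0.16, limma adjusted p = 0.00491). The other called subunits were lower. Atp6v1d was at 7.60, 7.69 and 7.82 against 8.06, 8.53 and 8.33 (-0.60 ± 0.13, adjusted p = 0.00564), and Atp6v1e1 at 8.20, 8.22 and 8.42 against 8.58, 9.16 and 8.90 (-0.60 ± 0.15, adjusted p = 0.0124). They were lower by 1.52- and 1.51-fold, and no library of one group reached the other. In V0, Atp6v0b differed by -0.51 ± 0.16 and Atp6v0d1 by -0.51 ± 0.16, with adjusted p-values of 0.0311 and 0.0303. After removal of the trend in GC and length Atp6v0b turned to 0.18 (adjusted p = 0.267). Atp6ap1l, a relative of Ac45, was at 0.87, 4.12 and 4.04 in R6/2 against 4.71, 4.96 and 4.81, a difference of -1.81 ± 0.72 (adjusted p = 0.0707) with library 1 far below the rest. Without the 2 libraries low in Slc17a7, Atp6v1a differed by 0.84 (adjusted p = 0.102) and Atp6v0d1 by -0.37 (adjusted p = 0.376).

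Among the autophagy genes, Atg4a (chrX:140953845-141164194), a protease that trims LC3 and GABARAP proteins, was 2.08-fold higher in R6/2 on the drug, at 3.00, 3.33 and 2.97 against 1.70, 2.15 and 2.29 (1.06 ± 0.21, adjusted p = 0.00381). Atg4d, another protease of the same family, was lower (-0.41 ± 0.13, adjusted p = 0.0332). The lipid transfer protein Atg2b was higher, at 6.73, 6.64 and 6.67 against 6.37, 5.69 and 5.95 (0.68 ± 0.16, adjusted p = 0.0103). Atg101 was lower, at 4.39, 4.29 and 4.36 against 4.79, 5.63 and 5.20 (-0.86 ± 0.22, adjusted p = 0.0132), and the tight R6/2 values lay below all 3 wild-type values. Atg16l1, which places the LC3 ligase on the membrane, was lower by 1.35-fold, at 6.09, 6.24 and 6.26 against 6.54, 6.72 and 6.64 (adjusted p = 0.00899). Atg4a shares part of its locus with Psmd10 and Atg4d with Kri1.

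The difference of Vps13c was the largest of the 28. It was 5.05-fold higher in R6/2, at 7.21, 7.18 and 6.67 against 4.84, 3.99 and 5.22 (2.34 ± 0.38, adjusted p = 0.00186). Vps13d was at 7.73, 7.54 and 7.59 against 7.09, 5.63 and 6.41 (1.24 ± 0.31, adjusted p = 0.0127), and Vps13b at 6.94, 7.02 and 6.80 against 5.84, 5.63 and 6.14 (1.05 ± 0.20, adjusted p = 0.00373). The groups did not overlap in any of these 3. Vps13a overlapped, at 4.36, 6.42 and 4.10 against 2.78, 4.72 and 4.44, and did not pass. Without the 2 libraries low in Slc17a7, Vps13c differed by 1.98 (adjusted p = 0.101), Vps13d by 1.21 (0.184) and Vps13b by 0.93 (0.135).

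In the ESCRT machinery, which sorts ubiquitinated cargo into multivesicular bodies, 3 genes were higher and 3 lower. Vps37a was at 5.85, 7.28 and 5.69 against 4.27, 5.22 and 5.47 (1.29 ± 0.46, adjusted p = 0.0492), with library 2 the high one. Without R6/2 PLX3397 library 2 it differed by 0.78 (adjusted p = 0.177). Vps36 differed by 0.47 ± 0.15 and Vps4b by 0.36 ± 0.12, but Vps4b was called lower after removal of the GC and length trend (-0.55, adjusted p = 0.0272). Vps37b was lower by 1.84-fold, at 4.16, 4.44 and 4.78 against 5.39, 5.33 and 5.29 (adjusted p = 0.00266), Vps25 by 1.53-fold and Vps37c by 1.5-fold. Without R6/2 PLX3397 libraries 1 and 2 the differences were 0.70 for Vps37a, 0.71 for Vps36, -0.56 for Vps37b and -0.31 for Vps37c, none of them called. Vps37a overlaps Cnot7 and Mtmr7. In the GARP tether, Vps52 and Vps51 were lower (-0.69 ± 0.15 and -0.55 ± 0.15, and -0.36 and -0.30 without these 2 libraries) and Vps54 was higher, at 5.54, 5.99 and 5.66 against 4.36, 5.01 and 5.18 (0.88 ± 0.20, adjusted p = 0.00885). Vps16 was lower, at 5.98, 6.05 and 6.11 against 6.43, 6.63 and 6.48 (-0.47 ± 0.10, adjusted p = 0.00667). Vps35 was higher by 0.37 ± 0.12 (adjusted p = 0.0338; -0.20 and not called with the GC and length trend removed) and Vps33b, which works with Vipas39, by 0.39 ± 0.13 (adjusted p = 0.0424). The remaining called genes, Vps9d1, Vps45 and Vps72, were lower by 1.33- to 1.53-fold.

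Related genes outside the name rule were called in both directions. Of the 9 other V-ATPase proteins and regulators 5 were higher, among them Dmxl2 by 1.28 ± 0.27 and Ncoa7 by 1.23 ± 0.31, and 2 were lower, among them Tldc1 (-0.52 ± 0.12). Of the initiation kinase and lipid kinase genes 1 was higher and 2 lower, the latter Wdr45 (-0.74 ± 0.12) and Becn1 (-0.35 ± 0.10), the Vps34 partner. Of the cargo receptors 3 were higher and 1 lower, with Wdfy3 at 1.27 ± 0.29 and Optn at 0.87 ± 0.24. Map1lc3b was lower (-0.51 ± 0.14). Of the 29 lysosomal genes 3 were higher and 4 lower, of the 20 ESCRT genes 3 and 4, and of the 15 sorting nexins and tether partners 3 and 3, with Snx3 at -0.64 ± 0.10.

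The last test asks whether the drug's change differed between the genotypes (the change in R6/2 minus the change in wild type). It was passed by 19 of the 74 genes (25.7%), 5 above 0 and 14 below, against 17% of all genes (9.29% above and 7.71% below), and the median was -0.27, against -0.05 over all genes. Of the marker lists, 3 of 6 precursor genes (median 0.57), 2 of 8 genes of thalamus, septum and pallidum (median 2.81) and 2 of 8 astrocyte genes (median 0.33) passed above 0. Below 0 passed 1 of 7 endothelial genes (median -0.30) and 1 of 18 microglial genes (median -0.56). Of the 12 genes of cortical excitatory neurons 0 passed, with 10 below 0 and 2 above (median -1.34). The summed levels on vehicle and on the drug in R6/2 were 7.99 to 8.31 and 7.82 to 8.16 log2 CPM for precursors, 6.44 to 8.21 and 6.92 to 8.72 for the thalamic list and 11.4 to 11.9 and 11.3 to 11.7 for astrocytes. The part of any of these lists in the result was not tested. Of the V-ATPase genes 0 were above and 3 below: Atp6v0d1 (-0.83 ± 0.23, limma adjusted p = 0.0328), Atp6v1e1 (-0.79 ± 0.21, adjusted p = 0.032) and Atp6v0e2 (-0.64 ± 0.19, adjusted p = 0.0427). For Atp6v0d1 the drug's change was 0.55 in wild type and -0.28 in R6/2, and for Atp6v1e1 0.51 and -0.28. Among Atg genes, Atg4d alone passed (-0.62 ± 0.18, adjusted p = 0.0421), and Atg101 came near (-0.99, adjusted p = 0.0504).

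Of the Vps genes 5 were above 0 and 10 below. Vps13c led with 2.78 ± 0.54 (adjusted p = 0.0153), from a drug change of -1.84 in wild type and 0.94 in R6/2. Vps37a followed at 2.10 ± 0.65 (adjusted p = 0.0478), Vps13b at 1.24 ± 0.29 (0.0211), Vps54 at 1.13 ± 0.29 (0.0278) and Vps4b at 0.54 ± 0.17 (0.0478). With the GC and length trend removed Vps4b turned to -0.81 (0.0684). Without R6/2 PLX3397 libraries 1 and 2 Vps37b stood at -0.62 and Vps37c at -0.46, neither called. On the other side, Vps37b was at -0.94 ± 0.22 (0.0225), Vps45 at -0.88 ± 0.22 (0.0269), Vps51 at -0.81 ± 0.21 (0.0283), Vps18 at -0.74 ± 0.18 (0.0239) and Vps16 at -0.60 ± 0.14 (0.0228). No gene of the table passed this test without R6/2 PLX3397 libraries 1 and 2, where 16 of the 74 still had an unadjusted p under 0.05. With single libraries left out, 1 gene passed when that library was wild-type vehicle 1, wild-type vehicle 2 or R6/2 PLX3397 2, and 2 passed when it was R6/2 PLX3397 1. In these fits 3.49% to 5.6% of all genes passed. There were 6 without R6/2 vehicle library 1 or 2 and 11 without R6/2 vehicle library 3 or wild-type PLX3397 library 2, where 7.52% to 12.4% of all genes passed.

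The changes of the 74 genes followed the length and base composition of their transcripts, as those of all genes did. For PLX3397 in wild type, Spearman's rho across 73 genes was -0.52 between change and exon length and 0.51 between change and GC, against -0.50 and 0.52 across the 14305 genes with a known length. For the genotype-by-drug test rho was 0.57 with length and -0.56 with GC, against 0.50 and -0.56. These points are genes of the same libraries and not independent. The 14 genes that rose with PLX3397 in wild type had a median exon length of 2886 bases, the 3 that fell 11527 bases and those without a call 3188.5. With the trend removed, 15 genes passed for PLX3397 in wild type, 14 higher and 1 lower, where 7.3% of 14305 genes did. The median change was then 0.21 over the 73 genes and 0.097 over the 14305, so both lay above 0. Of the 17 calls 9 were kept, 8 of the 14 higher and 1 of the 3 lower, with Vps13c at -1.05 (adjusted p = 0.0346). The other 6, all higher, were new: Atg16l1, Atg12, Atg3, Vps4b (0.62) and, named after their values were seen, Vps29 (0.51) and Vps50 (0.75). Vps13b then stood at 0.06 (adjusted p = 0.731) and Vps54 at -0.12 (adjusted p = 0.494). Of the pump subunits, Atp6v1d (0.87, adjusted p = 0.00353) and Atp6v1h (0.97, adjusted p = 0.046) kept their call and Atp6v1e1 and Atp6v0d1, at 0.26 each, did not. On PLX3397, 14 genes differed between the genotypes after the removal, where 24% of 14305 genes did. Of the 28 calls 6 were kept, Vps4b was called in the other direction and 7 genes were newly called. The kept ones included Vps13c (1.51), Atg4a (0.82), Atp6v1d (-0.99) and Atg16l1 (-0.60), while Atp6v1a stood at 0.43 (adjusted p = 0.0553). In the genotype-by-drug test 6 genes passed, against 3.12%. Vps13c, at 1.63 (adjusted p = 0.0423), was the only one of the 19 to keep its call and the only one of the 6 above 0. The cause of these trends was not tested.

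**Figure D5:**
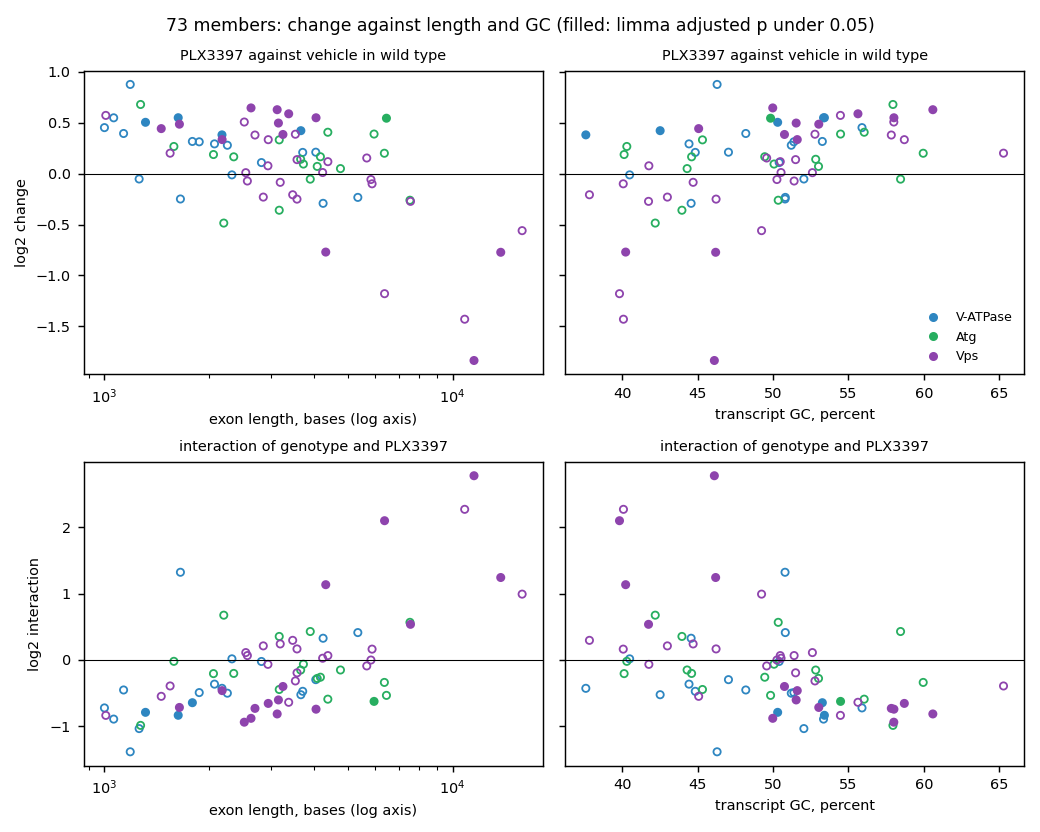
Log2 change with PLX3397 in wild type (top) and the genotype-by-drug difference (bottom) of 73 genes against exon length on a log axis (left) and transcript GC in percent (right), coloured by family and filled where the limma adjusted p is under 0.05. In wild type the long Vps13c and Vps13b lie at the bottom right of the length panel, and the same genes lie at the top right in the lower one.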

How the data were processed

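Striatal RNA of 12 mice was sequenced from TruSeq libraries, per the labels' protocols. Per the submitters' processing notes, STAR, featureCounts, edgeR and limma were used with the mm10 build. The roles and versions of these tools, and whether counting used strand, are not given in the sources used here. The deposited values are named RPKM but are log2 CPM: 100% of them give whole reads (within 0.1 read) after removal of a prior of on average 2 reads, and they carry no length term. Exon length and GC were taken from GENCODE M21 (mm10 coordinates), found for 14305 genes (92.9%) and 73 of the 74 members. Promoter windows and gene coordinates are from RefSeq GRCm38.p6, the same assembly. Of 82 RefSeq symbols that meet the rule, 8 are not in the table and were not analysed here.

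The deposited log2 CPM values of all 15397 genes were fitted with limma 3.58.1 (R 4.3.3) with 4 group means over all 12 libraries and an intensity trend, and p-values were adjusted by Benjamini-Hochberg over all genes in each of the 5 comparisons. Two-sided adjusted p under 0.05 is called a pass. Changes are log2 differences with their SE. The fit recovered large known changes on simulated independent counts, which lacked the tissue differences and the GC and length trends of these libraries. That check does not show how well changes as small as most of those reported here are found. No count test was the main test, since the table holds log2 values, and limma-voom on recovered reads was an alternative. The library size limits precision for members of few reads, the lowest having 12 in a library. The replicates are separate mice.

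Named genes are, in each comparison, the called members of largest change (up to 12 each way), the 2 members of smallest p in each complex, a set of well-known subunits and up to 3 called genes of each pathway list, 50 members in all. Atp6v0d2, in that set, was not analysed here. The members, gene lists and tests were chosen with earlier results of these data known. The alternatives were limma-voom, other priors, a filter at 1 log2 CPM, median-of-ratios scaling, removal of a spline trend in GC and length, a replicate block, separate fits, leaving out each library, and leaving out the 2 libraries lowest in cortical genes or the 2 highest in choroid plexus genes. Summing Atp6v0c with its copy was added after seeing the data. 1 gene of the pathway lists is not reported here by name.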

Additional observations from a re-analysis of the deposited data

Results flagged for a closer look

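For 19 of the 74 genes the drug's change differed between the genotypes by the test of that difference (limma, adjusted p under 0.05, log2 change in R6/2 minus that in wild type, n = 3 mice in each of the 4 groups). Of all 15397 genes, 17% passed. Below 0 were Vps37b (-0.94), Vps45 (-0.88), Atp6v0d1 (-0.83), Vps51 (-0.81), Atp6v1e1 (-0.79), Vps18 (-0.74), Vps37c (-0.73), Vps25 (-0.72), Vps9d1 (-0.65), Atp6v0e2 (-0.64), Atg4d (-0.62), Vps16 (-0.60), Vps4a (-0.46) and Vps53 (-0.40). Above 0 were Vps4b (0.54), Vps54 (1.13), Vps13b (1.24), Vps37a (2.10) and Vps13c (2.78). Of these, Vps13c passed in 20 of 21 alternatives, the exception being the fit without R6/2 PLX3397 libraries 1 and 2 (2.42, adjusted p = 0.235), in which none of the 19 passed. Vps53 passed in 4 of 21. With the GC and length trend removed, Vps13c alone of the 19 kept its call.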

How the results depend on the processing

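Removal of the GC and length trend gave 5 calls among the 74 genes for R6/2 on vehicle (0 as reported). It gave 15 for the drug in wild type (17 as reported, 9 of them shared), 14 for R6/2 on PLX3397 (28 as reported) and 6 for the genotype-by-drug test (19 as reported). Of the 14305 genes in this fit, 6.38%, 7.3%, 24% and 3.12% were called in the same order. On PLX3397 the removal turned the sign of Atp6v0b (0.18), Vps35 (-0.20) and Vps4b (-0.55, called). For the drug in wild type it turned that of Vps13b (0.062) and Vps4b (0.62, called), and in the genotype-by-drug test that of Vps4b (-0.81). Separate fits of 6 libraries gave 1 call for the drug in wild type (17 as reported) and 14 for R6/2 on PLX3397. Of all genes, 2.28% and 19.1% were called in these fits. Without R6/2 PLX3397 libraries 1 and 2 there were 7 calls for the drug in wild type, 0 for R6/2 on PLX3397 and 0 for the genotype-by-drug test. Without the 2 libraries high in choroid plexus genes, 27 genes passed for the drug in wild type (23.1% of all genes). The replicate block gave 5 calls for the drug in wild type (7.21% of all genes) and 6 for the genotype-by-drug test (9.3%). Libraries of equal number did not deviate together (18 pairs, r from -0.32 to 0.40, 3 above 0.1). Leaving out 1 library at a time gave 0 to 1 calls for R6/2 on vehicle, 0 to 23 for the drug in wild type and 0 in all for the drug in R6/2. It gave 18 to 30 for R6/2 on PLX3397 and 1 to 28 for the genotype-by-drug test. In the same order, the share of all genes called ran from 0.00649% to 3.64%, 1.48% to 17.6%, 0.812% to 2.47%, 22% to 36.6% and 3.49% to 22.9%. The causes were not tested. Of the 210 values of named genes over these alternatives, called ones kept sign and call, or uncalled ones stayed within their SE, in 3937 instances. A call was lost in 442 and gained in 49, and an uncalled value moved by more than its SE in 147. The sign turned in the 6 given above, each a value called as reported or in the alternative. Uncalled values near 0 that changed sign without a call are not among these 6. With 3 mice a group, a difference that missed the threshold does not show that values were alike.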
